A study of Mus musculus with 31 samples.

Results

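The imprinted growth genes Igf2, H19, Dlk1, Mest, Peg3, Cdkn1c, Plagl1, Grb10 and Ndn were followed over 31 microarrays of mouse mammary tissue and sorted mammary cells. These 9 genes were chosen by their symbols in the array annotation, with tissue signals of the same arrays already known, and they are represented by 26 of the 45037 probe sets of the array, or 9 of 18193 named genes. Their levels, differences and calls are therefore given as a description, and no p-value is given for any of them. Tissue was arrayed from 11 tumors, 5 large hyperplasias, 5 small hyperplasias and 4 samples of control mammary tissue. Apart from these, 3 pools of Myc-deficient and 3 pools of control basal cells were arrayed after cell sorting. All tumors and hyperplasias came from K5ΔNβcat mice, which carry a stabilised, N-terminally truncated β-catenin under the keratin 5 promoter, so that the transgene is active in the basal layer of the epithelium. The Myc-deficient cells came from K5creMycL/L mice, in which Cre under the same promoter deletes a floxed Myc, and the labels name no β-catenin transgene in these mice or in their controls. The labels give the strain of every sample as C57BL6, and the methods describe a mixed background of C57BL6 and another strain. The labels give no age, and they do not say whether tissue samples of a group came from separate animals, so the spread between samples may in part be technical.

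Most genes are read from both parental copies, whereas an imprinted gene is read mainly from the copy of 1 parent, which is set by DNA methylation marks laid down in the egg or the sperm. Many imprinted genes act on growth. Igf2, expressed from the paternal copy, encodes a fetal growth factor that acts through the Igf1 receptor and the insulin receptor. H19, its neighbour on chromosome 7, is expressed from the maternal copy as a long noncoding RNA, shares enhancers with Igf2, and is the precursor of miR-675. Peg3, Plagl1, Mest, Dlk1 and Ndn are expressed paternally, and Cdkn1c and, in most tissues, Grb10 are expressed maternally. Many of them are turned down after birth, and several of them are used in fat and in its precursor cells.

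A pair of microRNA genes lies within these loci, Mir675 in H19 and Mir483 in Igf2. Their mature sequences are printed because the probe set of H19 is annotated to both H19 and Mir675, so that the H19 signal is that of the precursor RNA. The mature microRNAs were not measured by this array. The seed (bases 2 to 8 from the 5′ end) is in capitals. The sequences are those of RefSeq on build GRCm38.p6, where miR-675-5p lies at chr7:142577112-142577133 and miR-483-5p at chr7:142654968-142654989, both on the minus strand. None of the 4 seeds was shared with any other of the 1679 mature mouse microRNAs of that table, nor among themselves.
miR-675-5p: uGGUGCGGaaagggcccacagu
miR-675-3p: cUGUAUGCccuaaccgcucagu
miR-483-5p: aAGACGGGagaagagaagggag
miR-483-3p: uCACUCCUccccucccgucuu

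RefSeq promoter windows, each from 250 bases before to 50 bases after a transcription start, were matched for 7 of the 9 genes (13 windows, 4 of them for Igf2 and 3 for Mest, 2 of which overlap). H19 and Cdkn1c had none. The windows were searched on both strands for the Plagl1 motif GGGGCCCC, the E-box CACGTG that Myc and its partner Max bind, the core Tcf/Lef motif CTTTGA through which β-catenin acts, and the Sp1-type GC box GGGCGG. The first pair of motifs reads the same on both strands. Of all 32851 windows of the table, 1.08% (354) held the Plagl1 motif, 7.15% (2349) the E-box, 16% (5257) the Tcf/Lef motif and 35.7% (11714) the GC box. Among the 13 member windows, the Plagl1 motif was found in 1 (Peg3), the E-box in 1 (Plagl1), the Tcf/Lef motif in 1 (the most upstream Igf2 window) and the GC box in 8, of 5 genes. These matches are descriptions of the letters and not of bound sites. The 4 windows printed hold these matches in genes that stood apart between the tissue groups, with the matches in capitals. They are the most upstream Igf2 window at chr7:142666767-142667066 (minus strand), the most downstream Igf2 window at chr7:142657447-142657746 (minus strand), the Peg3 window at chr7:6730370-6730669 (minus strand) and the Plagl1 window at chr10:13090582-13090881 (plus strand), all on GRCm38.p6.
Igf2 upstream window: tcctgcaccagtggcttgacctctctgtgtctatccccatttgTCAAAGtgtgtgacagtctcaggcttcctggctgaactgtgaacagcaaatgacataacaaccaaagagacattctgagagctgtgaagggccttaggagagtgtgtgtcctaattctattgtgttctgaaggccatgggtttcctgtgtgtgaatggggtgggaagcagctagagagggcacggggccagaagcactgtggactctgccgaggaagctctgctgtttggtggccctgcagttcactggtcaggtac
Igf2 downstream window: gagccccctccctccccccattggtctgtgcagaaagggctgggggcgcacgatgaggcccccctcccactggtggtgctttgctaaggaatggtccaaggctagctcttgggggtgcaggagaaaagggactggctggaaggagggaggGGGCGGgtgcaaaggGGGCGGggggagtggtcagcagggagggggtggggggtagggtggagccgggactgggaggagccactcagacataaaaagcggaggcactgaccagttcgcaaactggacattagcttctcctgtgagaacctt
Peg3 window: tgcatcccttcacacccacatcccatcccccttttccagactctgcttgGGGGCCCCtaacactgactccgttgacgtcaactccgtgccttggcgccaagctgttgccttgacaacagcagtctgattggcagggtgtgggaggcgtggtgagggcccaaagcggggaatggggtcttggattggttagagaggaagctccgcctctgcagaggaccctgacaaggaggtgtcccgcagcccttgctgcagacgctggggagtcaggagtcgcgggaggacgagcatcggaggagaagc
Plagl1 window: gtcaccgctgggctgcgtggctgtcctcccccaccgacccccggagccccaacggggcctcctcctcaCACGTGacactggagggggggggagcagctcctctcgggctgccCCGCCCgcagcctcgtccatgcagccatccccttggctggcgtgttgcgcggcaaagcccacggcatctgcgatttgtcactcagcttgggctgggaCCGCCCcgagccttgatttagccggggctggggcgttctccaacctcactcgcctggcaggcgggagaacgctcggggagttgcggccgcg

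In Igf2 every tumor exceeded every other tissue sample except that small hyperplasia 3 exceeded tumor 8. In the 11 tumors its signal was 1040 at the lowest, 3869 at the median and 4870 at the highest, against 92.7, 70.0, 87.8 and 134.5 in control tissue samples 1 to 4. The signal is the MAS5 summary of the probe set on a linear scale, on which the mean of each array without its extremes was set to 100, and a group median of 30 was taken as the lower limit for testing. Tumors averaged 3543 ± 1056 (SD, n = 11) and control tissue 96.3 ± 27.3 (SD, n = 4), a 36.8-fold ratio of mean signals. On the log2(signal + 16) scale used for all differences the tumors were higher by 4.93 ± 0.39 (SE of the limma fit; 95% interval 4.11 to 5.74). No tumor overlapped with control tissue.

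The tumors also stood above the large hyperplasias in Igf2, by 4.97 ± 0.36 (SE) on the log2 scale, again without overlap. The 5 large hyperplasias had 71.3, 121.5, 65.8, 102.4 and 103.1, within or close to the range of control tissue, from which they differed by -0.04 ± 0.45 (SE; 95% interval -0.97 to 0.89). The small hyperplasias were uneven, with 373.2, 78.9, 1157, 381.7 and 231.2 in samples 1 to 5. In 4 of the 5 small hyperplasias the signal exceeded every control sample, and sample 2 lay within the control range. Their mean of 444 ± 417 (SD, n = 5) was 4.62 times that of control tissue, a log2 difference of 1.61 ± 0.45 (SE), and without sample 3 the mean of 266.3 was 2.77 times that of control tissue. The order of the groups by Igf2 was therefore tumors, small hyperplasias, then control tissue and large hyperplasias, and the last pair did not differ beyond its spread.

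H19 followed the same order at the top and another at the bottom. Its signal in tumors was 1848, 4215 and 5500 at the lowest, median and highest, against 23.4, 32.1, 22.2 and 27.2 in control tissue, where 3 of 4 samples were below 30. Tumors averaged 3971 ± 940 (SD, n = 11) and control tissue 26.2 ± 4.4 (SD, n = 4), a log2 difference of 6.52 ± 0.37 (SE). The ratio of these means, 151-fold, rests on a control signal near the lower end of what the array resolves. The large hyperplasias, which did not stand apart in Igf2, did so in H19, with 144.2, 258.7, 232.9, 269.6 and 246.5, all above every control sample and 8.78-fold higher in the mean. The small hyperplasias had 782.6, 155.3, 2506, 1139 and 720.3, a mean of 1061 ± 881 (SD, n = 5; 699.2 without sample 3), also all above control tissue. The small and large hyperplasias overlapped in H19, and small hyperplasia 3 again exceeded tumor 8.

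**Figure D1:**
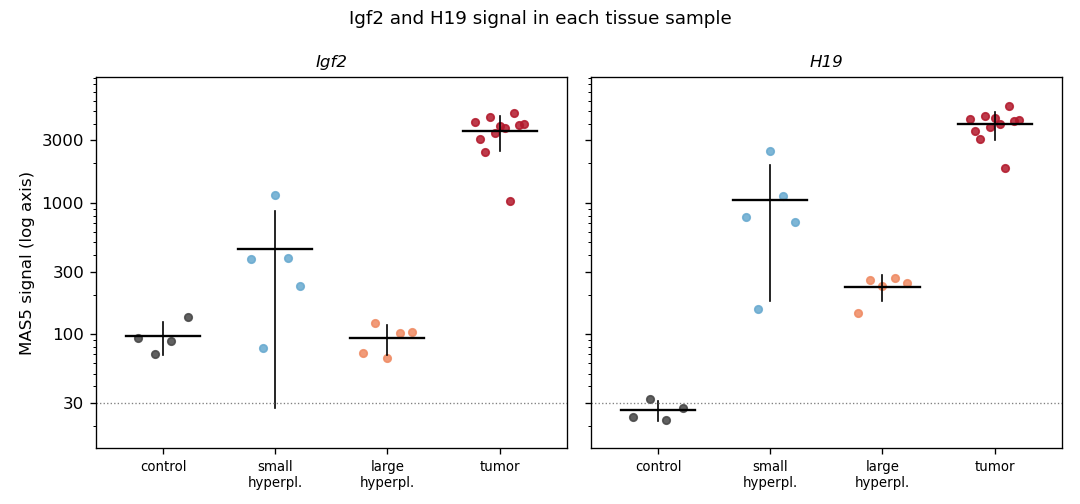
MAS5 signal (log axis) of Igf2 and H19 in each tissue sample, with control tissue (n = 4), small hyperplasias (n = 5), large hyperplasias (n = 5) and tumors (n = 11) from left to right. Points are samples in the order of their numbers, horizontal bars are means, vertical bars are 1 SD, and the dotted line is a signal of 30. The 11 tumors lie between 1040 and 4870 for Igf2 and between 1848 and 5500 for H19, and the H19 signals of control tissue lie between 22.2 and 32.1.

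Both genes of the pair varied together from sample to sample. Over the 5 small hyperplasias Igf2 and H19 had the same order, with sample 2 lowest and sample 3 highest in both. Among the tumors, tumor 8 was lowest and tumor 9 highest in both genes. Over the 11 tumors the log2 signals of the pair had a Pearson r of 0.99 and a Spearman rho of 0.95, and r was 0.97 without tumor 8. These tumors share the platform and the lesion type, and the values are a description. The order was not shared in the large hyperplasias or in control tissue, where no sample held the same rank in both genes. The second Igf2 probe set was dimmer, with 18.3 to 195.8 in tumors and at most 27.1 in any other tissue sample, and it placed the tumors 2.06 above control tissue on the log2 scale. In the small hyperplasias that dimmer probe set differed from control tissue by -0.12, the opposite sign, with every sample below 30.

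The genes whose log2 signal followed Igf2 most closely over the 11 tumors, among 7036 genes with a probe set of 1 symbol and a tumor median of at least 100, were Fat1 (r = 0.96), Ube4b (0.93), Tmem98 (0.92), Cdkn1a (0.91) and Eloa (0.91). Fat1 encodes an atypical cadherin, Ube4b a ubiquitin ligase, Cdkn1a the cell cycle inhibitor p21 and Eloa a subunit of the elongin complex. Tumor 8 was the lowest tumor for each of these 5 genes. Without tumor 8 their r lay between 0.51 and 0.75 and their ranks between 127 and 929, so the likeness rested largely on that tumor. H19, whose probe set carries 2 symbols and stood outside this ranking, was more like Igf2 than all of the 7036 genes, and than all but 1 of them without tumor 8. The other members were less like Igf2, with Plagl1 at 0.59, Ndn at 0.53, Mest at 0.52, Dlk1 at 0.51, Cdkn1c at 0.42, Grb10 at 0.37 and Peg3 at 0.09. Without tumor 8 their r was 0.65 for Plagl1, 0.59 for Dlk1, 0.40 for Mest and 0.22 for Grb10. It was then 0.08 for Cdkn1c, -0.20 for Ndn and -0.35 for Peg3. The Dlk1 signals of all tumors were below 30.

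Peg3, which encodes a zinc finger protein with roles in fetal growth and maternal behaviour, was lower in every tumor than in any other tissue sample. The tumors had 24.4, 57.9 and 104.1 at the lowest, median and highest, against 1545, 247.5, 854.6 and 1201 in control tissue. The ratio of means was 16.3-fold in favour of control tissue, and the log2 difference of tumors from control tissue was -3.52 ± 0.39 (SE). Large hyperplasias had 408.4, 232.4, 321.2, 426.0 and 543.9, all above every tumor, and 4 of 5 lay within the range of control tissue, below its 3 highest samples. The small hyperplasias had 296.4, 1484, 421.5, 297.2 and 343.5, so that 4 of 5 lay below the 3 highest control samples and sample 2 lay among them. The tumors were lower than the large hyperplasias by 2.46 on the log2 scale, without overlap. A dimmer Peg3 probe set differed in sign in small hyperplasias, at 0.05 from control tissue, and another differed there by -0.06.

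Mest encodes an enzyme of the hydrolase family and is linked to the growth of fat tissue. It spread so widely within groups that no pair of groups was apart. Its signals were 80.8, 120.5 and 265.4 at the lowest, median and highest of the tumors, against 790.6, 41.9, 357.8 and 431.1 in control tissue, a log2 difference of -0.93 ± 0.59 (SE; 95% interval -2.14 to 0.28). Large hyperplasias had 513.1, 121.9, 36.7, 44.0 and 45.3, and small hyperplasias 53.3, 640.4, 101.6, 88.3 and 91.5. In each of these groups 1 sample stood far above the others, and in control tissue sample 2 stood far below them.

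Mest and Peg3 had the same order over the 4 control samples, with sample 1 highest and sample 2 lowest, and over the 5 small hyperplasias, with sample 2 highest and sample 1 lowest. In large hyperplasias and tumors no sample held the same rank in both genes. Without control sample 2, Mest differed from control tissue by -1.72 in tumors, -2.26 in large and -1.84 in small hyperplasias, and was then called lower in each. Peg3 was then called lower in large hyperplasias (-1.61) and in small hyperplasias (-1.33) as well. Control sample 2 had a mean log2 signal of 11.91 over 10 adipocyte markers, within the 11.85 to 11.98 of the control group. It was the lowest there in macrophage markers (8.90, the others 8.95 to 9.50) and skeletal muscle markers (5.03, the others 5.05 to 5.37). In Schwann cell markers it was the highest (8.13, the others 7.62 to 7.96). Small hyperplasia 2 stood at the edge of its group in several marker lists. It was the highest there in adipocyte markers (10.98, the others 10.77 to 10.94), endothelial markers (7.85, the others 7.34 to 7.50) and skeletal muscle markers (5.64, the others 4.69 to 5.20), and the lowest in macrophage markers (9.30, the others 9.48 to 9.70) and luminal markers (9.01, the others 9.29 to 9.56). In fibroblast markers small hyperplasia 2 was also the lowest of its group (10.56, the others 10.66 to 10.96). The part of these cell types in the Mest and Peg3 signals of these samples was not tested.

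Dlk1, a transmembrane protein related to Notch ligands that holds fat precursors undifferentiated, stayed at the edge of detection. Of its tissue samples, 1 control sample reached 30, at 40.2, and the tumors had 8.7 to 20.7, the large hyperplasias 11.4 to 25.6 and the small hyperplasias 15.6 to 20.9. It did not pass the limit for testing in any comparison, and no fold is given.

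Cdkn1c encodes p57, an inhibitor of cyclin-dependent kinases. It was low in the tumors alone, with 9.4, 20.9 and 68.8 at the lowest, median and highest, against 185.6, 210.1, 157.5 and 207.8 in control tissue. Of the 11 tumors, 4 reached 30, and all tumors lay below every other tissue sample. The tumors were lower by 2.31 ± 0.23 (SE) than control tissue and by 2.36 ± 0.21 (SE) than the large hyperplasias, on the log2 scale. Large hyperplasias had 219.4, 132.2, 254.7, 190.0 and 207.1, which differed from control tissue by 0.05 ± 0.27 (SE; 95% interval -0.50 to 0.60). In small hyperplasias the signals were 93.6, 127.0, 144.3, 141.7 and 186.8, 4 of 5 below every control sample.

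Plagl1, also named Zac1, is a zinc finger transcription factor that acts on other imprinted genes. It was lowest in the large hyperplasias rather than in the tumors. Large hyperplasias had 459.5, 420.7, 220.4, 444.0 and 353.7, against 1159, 731.9, 991.1 and 1363 in control tissue, a log2 difference of -1.45 ± 0.27 (SE) without overlap. Tumors had 287.4, 478.6 and 838.0 at the lowest, median and highest, and 10 of 11 lay below every control sample, a log2 difference of -1.12 ± 0.24 (SE). The tumors overlapped with the large hyperplasias, from which they differed by 0.34 ± 0.22 (SE). Small hyperplasias, with 571.9, 1065, 694.5, 829.4 and 484.1, overlapped with control tissue.

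Grb10, an adaptor that dampens signalling of the insulin and Igf1 receptors, was lower in all 3 kinds of lesion than in control tissue, without overlap. Tumors had 109.8, 174.9 and 308.5 at the lowest, median and highest, against 440.5, 452.3, 401.0 and 517.3 in control tissue, a log2 difference of -1.23 ± 0.18 (SE). The difference from control tissue was -0.83 ± 0.21 (SE) in large hyperplasias, at 181.9 to 332.9, and -0.47 ± 0.21 (SE) in small hyperplasias, at 292.5 to 347.6. Tumors and large hyperplasias overlapped, although 7 of 11 tumors lay below every large hyperplasia. A dimmer Grb10 probe set that passed the limit was called lower in tumors than in large hyperplasias (-0.55), without overlap. It was also called lower in small hyperplasias than in control tissue (-0.58). Ndn, which encodes necdin, a protein that restrains growth in nerve and fat precursors, was lower in the tumors, with 47.0, 97.4 and 121.0 at the lowest, median and highest, against 314.7, 378.6, 317.4 and 459.0 in control tissue. Its log2 difference in tumors was -1.84 ± 0.17 (SE) from control tissue and -1.29 ± 0.16 (SE) from large hyperplasias. Small hyperplasias, at 266.6 to 407.7, differed from control tissue by -0.02 ± 0.20 (SE). Large hyperplasias, at 211.3 to 309.5, lay just below the lowest control sample, a difference of -0.55 ± 0.20 (SE). Its call was lost without large hyperplasia 2 (-0.51), control sample 2 (-0.53) or control sample 4 (-0.45). The other Ndn probe sets that passed the limit were called lower in large hyperplasias without overlap, at -0.97, -0.70, -1.27 and -0.95. Of the 8 Ndn probe sets, the 5 that passed the limit had a negative difference in tumors, and a probe set below the limit, at 6.4 in tumors and 6.3 in control tissue, differed by 0.02. That probe set also differed by 0.12 in large and by 0.11 in small hyperplasias from control tissue, and 2 others, likewise below the limit, differed by 0.06 and 0.01 in tumors against large hyperplasias. A dim probe set each of Plagl1 and Grb10, below the limit for testing, had a positive difference of 0.24 each in small hyperplasias, and in tumors against large hyperplasias they differed by -0.27 and 0.0088. Over the 4 tissue comparisons the probe sets other than the brightest gave 68 differences, of which 11 had the opposite sign to the brightest, and 1 of these 11 (Peg3 in small hyperplasias) passed the limit for testing.

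**Figure D2:**
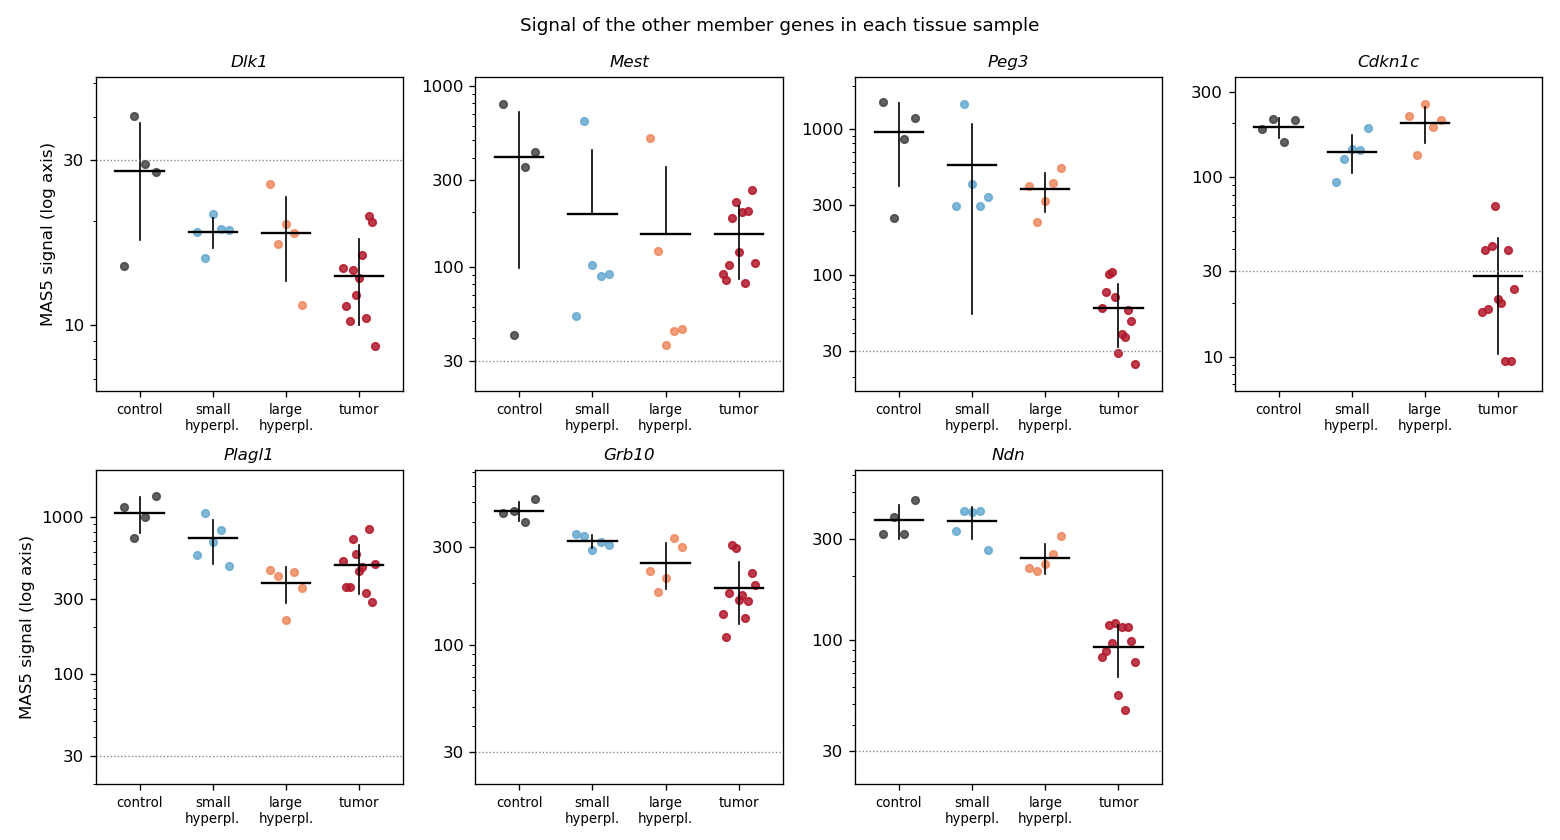
MAS5 signal (log axis, a scale of its own for each gene) of the other 7 genes in each tissue sample, with control tissue (n = 4), small hyperplasias (n = 5), large hyperplasias (n = 5) and tumors (n = 11) from left to right. Points are samples, horizontal bars are means, vertical bars are 1 SD (its lower arm is left out where the SD exceeds the mean), and the dotted line is a signal of 30. All 11 tumors lie below every other sample for Peg3, Cdkn1c and Ndn, and for Mest single samples such as small hyperplasia 2 (640.4) lie far from their group.

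Counted over the genes, each by its brightest probe set here and below, 8 of 9 passed the limit for testing in tumors against control tissue. Of these, 2 (Igf2 and H19) were called higher and 5 (Peg3, Cdkn1c, Plagl1, Grb10 and Ndn) lower by limma at an adjusted p under 0.05. Of all 24086 probe sets tested, 33.2% were called higher and 35.9% lower. In large hyperplasias against control tissue H19 was called higher and Plagl1, Grb10 and Ndn lower, beside 25.6% and 20.1% of 24001 probe sets. In small hyperplasias against control tissue Igf2 and H19 were called higher and 0 members lower, beside 16.8% and 14.4% of 23489 probe sets. In tumors against large hyperplasias Igf2 and H19 were called higher and Peg3, Cdkn1c and Ndn lower, beside 21.0% and 32.9% of 23747 probe sets. The genes were chosen on these same signals, so the counts are a description. The first 3 comparisons share the control samples, and the comparisons of tumors share the tumors.

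**Figure D3:**
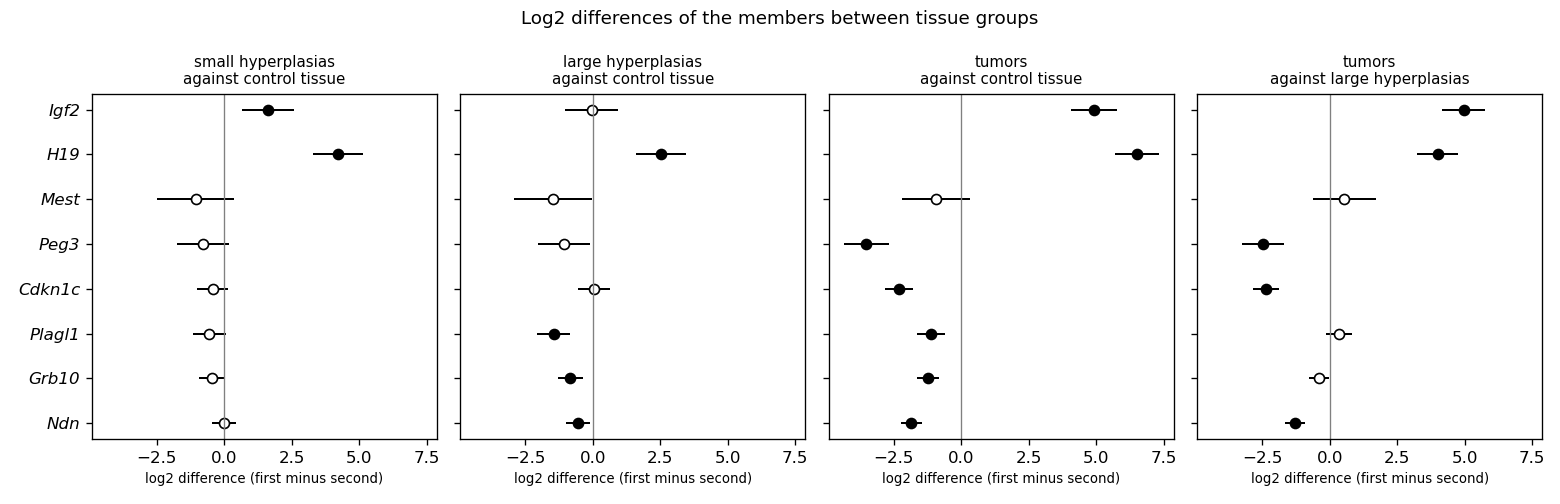
Difference of each gene in 4 comparisons, on the log2(signal + 16) scale, first group minus second. Points are limma estimates, filled where called at an adjusted p under 0.05 over all probe sets tested, and lines are 95% intervals. Dlk1 was not tested. Igf2 lies at 4.93 in tumors and at -0.04 in large hyperplasias, whereas H19 lies at 6.52 and 2.52.

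Among the 11 tumors the genes varied to different degrees. The highest tumor was 4.68 times the lowest for Igf2, 3.28 times for Mest, and between 2.58 and 2.98 times for H19, Plagl1, Grb10 and Ndn. Igf2 owed its place to tumor 8, without which the ratio was 1.98, and that of H19 was 1.80. For Peg3 and Cdkn1c, where 9 and 4 of the 11 tumors reached 30, the ratio was 3.47 and 2.29 with signals below 30 set to 30. All tumors were below 30 for Dlk1, and no ratio is given. Tumor 8 was lowest in Igf2, H19, Mest and Ndn, and tumor 9 was highest in Igf2, H19, Plagl1 and Dlk1. Tumor 4 was highest in Peg3 and Grb10, and tumor 5 in Cdkn1c and Ndn.

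**Figure D4:**
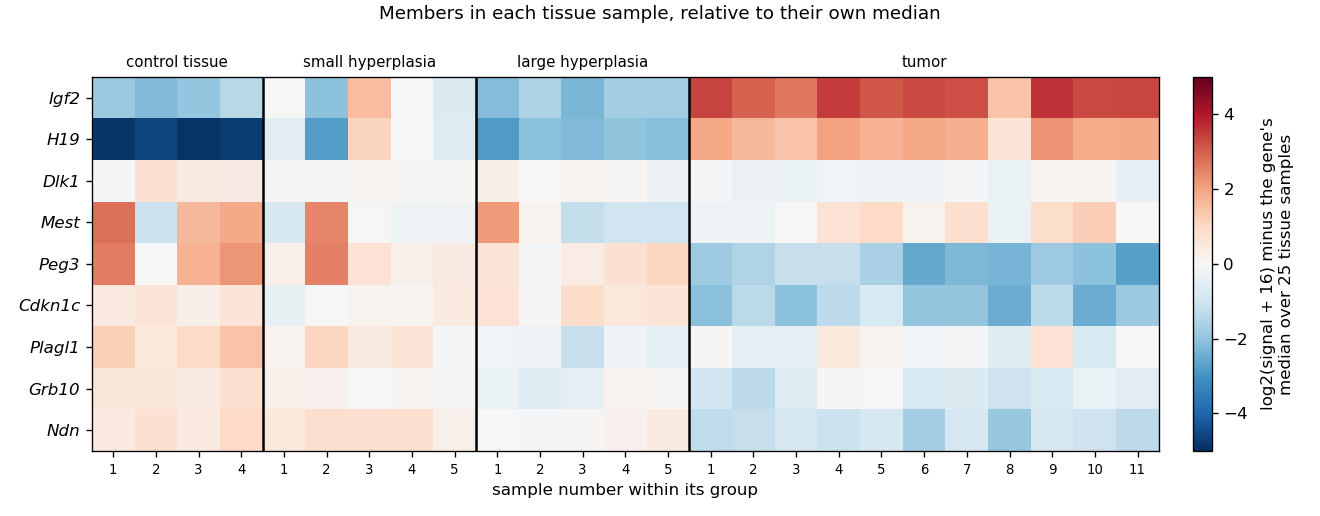
Each gene (rows) in each of the 25 tissue samples (columns, numbered within their group), as log2(signal + 16) minus the median of that gene over the 25 samples. Red is above and blue below the median of the gene. Igf2 and H19 are red in all 11 tumors and in small hyperplasia 3 and blue in small hyperplasia 2, and Mest and Peg3 are both red in small hyperplasia 2 and in control samples 1, 3 and 4.

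Whole tissue holds several cell types in unknown shares, and in such samples fewer cells of a type and less RNA per cell cannot be told apart. The signal summed over 10 adipocyte markers ranged between 55458 and 61231 in control tissue, between 28316 and 36011 in small hyperplasias, between 21243 and 27600 in large hyperplasias and between 1410 and 7048 in tumors, and all 10 fell in tumors against control tissue (limma, adjusted over all probe sets). The summed signal was lower in tumors than in control tissue, as were Peg3, Cdkn1c, Plagl1, Grb10 and Ndn. Plagl1 averaged 493.1 in tumors and 379.7 in large hyperplasias, with overlap and without a call, where the summed signal was lower in tumors. Cdkn1c in large hyperplasias differed from control tissue by 0.05 ± 0.27 (SE), where the summed signal was lower. Ndn in small hyperplasias, also with a lower summed signal, differed by -0.02 ± 0.20 (SE) by its brightest probe set. Other Ndn probe sets that passed the limit differed there by -0.62, -0.29, -0.16 and -0.10, none of them called. Schwann cell markers fell in tumors, 4 of 4, with a median log2 difference of -1.63 from control tissue. In large hyperplasias 1 of them fell (median -0.25), and in small hyperplasias 0 did (median 0.21). Endothelial markers had summed signals of 2721 to 2994 in control tissue and 1635 to 2317 in small hyperplasias. Their sums were 1106 to 1444 in large hyperplasias and 913 to 1688.5 in tumors. Basal epithelial markers rose in tumors, 7 of 7, with summed signals of 10115 to 16980 against 1236 to 1682 in control tissue. Tumor 8, lowest in Igf2 and H19, was the lowest tumor in their mean log2 signal (9.73, the others 10.24 or more). Tumor 9, highest in both genes, was the highest there (10.94). Over all 24086 probe sets tested in tumors against control tissue, 33.2% rose and 35.9% fell. The part of these cell types in the member signals was not tested.

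Markers of skeletal muscle, a tissue in which Igf2 is active during development, were high in some tumor samples. The mean log2 signal of 12 skeletal muscle markers was 8.41 in tumor 3, 8.35 in tumor 4, 7.72 in tumor 11 and 7.49 in tumor 6, and 5.37 or less in control tissue. Tumor 9, with the highest Igf2, had 4.84, below all control samples, and tumor 8, with the lowest Igf2, had 6.13. Of 7 muscle progenitor markers, 0 or 1 reached 30 in any tumor. The 5 tumors with a muscle marker mean of 5.04 or less (1, 2, 5, 9 and 10) had Igf2 signals of 4119, 3065, 3438, 4870 and 3922. Tumors 3, 4, 6, 7 and 11, with means of 6.45 or more, had 2460, 4485, 3869, 3698 and 4006.5. The part of muscle in the Igf2 signal was not tested.

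Other imprinted genes went both ways in tumors against control tissue. Of 36 on the array, 23 were tested, and 7 rose and 11 fell (limma, adjusted over all 24086 probe sets, of which 33.2% rose and 35.9% fell). The list had a median log2 difference of -0.22, against -0.03 over all probe sets tested. Those with the largest change were Nnat, a paternally expressed gene of nerve and fat cells (22.4 ± 26.7 in tumors and 4162 ± 808 in control tissue; log2 difference -6.96 ± 0.38 (SE), adjusted p = 3.3e-14), Slc38a4, an amino acid transporter (log2 difference 2.64 ± 0.43 (SE), adjusted p = 8.2e-06), Sgce, which encodes epsilon-sarcoglycan (-2.61 ± 0.14 (SE), adjusted p = 4.1e-14), and Ppp1r9a (-2.36 ± 0.21 (SE), adjusted p = 4.9e-10). Nnat also fell in large hyperplasias, by 3.20 (adjusted p = 1.9e-06, limma), and in small hyperplasias, by 1.37 (adjusted p = 0.018, limma). Slc38a4 averaged 179.6 ± 107.1 in tumors and 10.8 ± 8.0 in control tissue, and it rose in small hyperplasias by 1.86 and in large hyperplasias by 1.71 on the log2 scale (limma, adjusted p = 0.0061 and 0.0068).

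Some genes of the same imprinted clusters as members were looked at after their values were seen. Meg3 and Rian, the maternally expressed noncoding RNAs of the Dlk1 cluster, rose in tumors against control tissue by 0.95 ± 0.35 and 1.03 ± 0.28 (SE) on the log2 scale (limma, adjusted p = 0.018 and 0.0021), while Dlk1 stayed below 30 in all tumors. Phlda2 and Kcnq1ot1 lie in the cluster of Cdkn1c. Phlda2, a maternally expressed gene that limits placental growth, rose to 86.2 ± 21.4 in tumors, against 11.7 ± 6.3 in control tissue (log2 difference 1.88 ± 0.18 (SE), adjusted p = 1.9e-09, limma). Kcnq1ot1, the paternally expressed antisense RNA of that cluster, fell to 105.9 ± 18.8 in tumors, against 308.9 ± 46.4 in control tissue (adjusted p = 9.6e-09, limma).

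Of 7 genes on the array that encode receptors, receptor adaptors or mRNA-binding proteins of Igf2, 6 were tested in tumors against control tissue. Of these, 5 fell and 0 rose, with a median log2 difference of -0.99, where 35.9% of all 24086 probe sets tested fell and 33.2% rose. The 5 that fell were Irs1, Irs2, Igf1r, Insr and Igf2bp3, and Igf2bp1 was below the limit for testing. Irs1, an adaptor of both receptors, fell to 302.5 ± 137.5 in tumors, against 1204 ± 125 in control tissue (log2 difference -2.04 ± 0.23 (SE), adjusted p = 1.5e-08, limma). Irs2 fell by 1.27, Igf1r by 1.07 and Insr, the insulin receptor, by 0.92 on the log2 scale (limma, adjusted p = 3.1e-08, 3.1e-06 and 1.1e-07). Adipocyte markers fell in the same comparison, and the part of fat cells in these differences was not tested. Igf2r, an imprinted receptor that clears Igf2 from the cell surface, had 214.5 ± 33.3 in tumors and 239.3 ± 26.1 in control tissue (log2 difference -0.15 ± 0.10 (SE), adjusted p = 0.18, limma).

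Cdkn1c, among the members, and Cdkn2c, outside them, stood against the other cyclin-dependent kinase inhibitors. Of 6 such genes outside the members, 5 rose and 1 fell in tumors against control tissue (limma). Over all 24086 probe sets tested, 33.2% rose and 35.9% fell. Cdkn1a rose by 2.26 ± 0.20 (SE), Cdkn2a by 1.82 ± 0.21 (SE) and Cdkn2b by 1.82 ± 0.20 (SE) on the log2 scale (limma, adjusted p = 2.7e-10, 2.7e-08 and 1.8e-08). Cdkn2c fell by 2.80 ± 0.20 (SE), to 153.8 ± 73.5 in tumors, against 1096 ± 109 in control tissue (adjusted p = 8.1e-12, limma).

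In sorted basal cells only Plagl1 and Peg3, among the members, reached a signal of 30 in all 6 pools. These cells were gated as CD24-positive and CD49f-high, and their RNA was amplified by another kit than that of tissue, so the levels were not compared with those of tissue. Each array holds a pool of several mice. Of 7 basal epithelial markers 6 or 7 reached 30 in each pool, and of 8 luminal markers 4 to 7. Myc itself had signals of 141.0, 427.9 and 42.3 in the Myc-deficient pools and 1479, 1677 and 1869 in the control pools. Plagl1 had 2291, 3494 and 2893 in Myc-deficient pools and 1663, 1763 and 2426 in control pools, a log2 difference of 0.56 ± 0.23 (SE; 95% interval 0.06 to 1.06) with overlap between the groups. In each of the 3 pairs of pools of the same number Plagl1 was higher in the Myc-deficient pool, and with the pool number as a block the difference had an SE of 0.16, still without a call. A weaker Plagl1 probe set had the opposite sign at -0.13. Peg3, by the probe set brightest in these cells, another than in tissue, had 234.1, 221.8 and 233.3 in Myc-deficient pools and 195.7, 98.6 and 271.5 in control pools.

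Igf2 was dim in sorted basal cells, with 30.3, 3.5 and 22.7 in Myc-deficient pools and 32.8, 37.4 and 43.6 in control pools, a log2 difference of -0.72 ± 0.45 (SE; 95% interval -1.69 to 0.26). The groups did not overlap, although their nearest values, 30.3 and 32.8, lay close together at the limit of 30. How many of all probe sets were apart in this way was not counted. The dimmer Igf2 probe set differed by 0.24, with the opposite sign. H19 and Dlk1 stayed below 30 in all 6 pools and were not tested. Mest had 21.9, 41.5 and 28.7 in Myc-deficient pools and 74.0, 71.7 and 14.6 in control pools. Of 17 differences of weaker probe sets in sorted cells 6 had the opposite sign, and those not yet given were below the limit for testing, at -0.11 and -0.0049 for Peg3, -0.22 for Grb10 and -0.0045 for Ndn. By their brightest probe sets Cdkn1c, Grb10 and Ndn overlapped between the groups, with log2 differences of 0.06 ± 0.52, 0.26 ± 0.44 and 0.55 ± 0.67 (SE). Of 7 members tested 0 were called by limma, as were 0% of all 19737 probe sets tested in either direction, of which 533 were higher and 726 lower at an unadjusted p under 0.05 (1083 and 1142 with the pool number as a block, again with 0 called). Without Myc-deficient pool 3, 10 probe sets were called lower, and without Myc-deficient pool 2, 1 was. The methods' t-test combined with their limit of a fold over 2 called 130 higher and 205 lower before adjustment and 0 after it. With all 6 pools limma did not call the deleted Myc itself, so the lack of calls does not show that the members were unchanged.

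**Figure D5:**
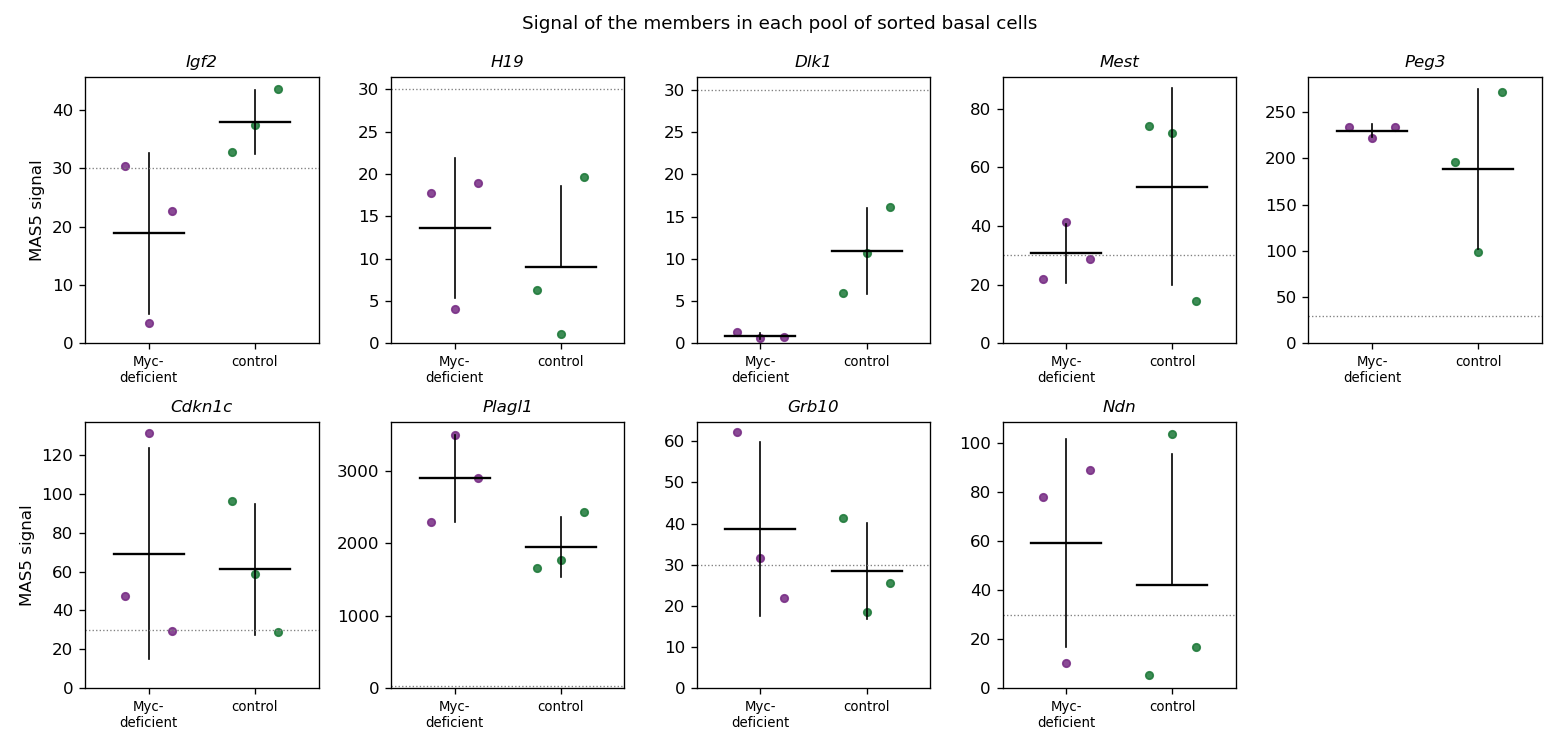
MAS5 signal (linear axis from 0, a scale of its own for each gene) of the 9 genes in 3 pools of Myc-deficient and 3 pools of control basal cells, pools 1 to 3 from left to right within a group. Horizontal bars are means, vertical bars are 1 SD (its lower arm is left out where the SD exceeds the mean), and the dotted line is a signal of 30. Plagl1 lies between 1663 and 3494 in all pools, and H19 and Dlk1 lie below 30.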

How the data were processed

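RNA of whole mammary tissue (25 samples) was prepared with the one-cycle labelling kit of Affymetrix and that of sorted basal cells (6 pools) with NuGEN amplification, before hybridisation to Affymetrix mouse genome arrays. The deposited values are linear intensity values that the authors computed with MAS5 in Affymetrix Expression Console, per the submitters' processing notes, with each array scaled to a mean of 100. Its version was not given in the sources used here. Of 45101 probe sets, 64 control probe sets were left out. Symbols came from the platform annotation (34945 probe sets with 1 symbol, 932 with several, 9160 with none). No genome was used for the arrays, and gene coordinates are not given. Sequences and their coordinates are those of RefSeq on GRCm38.p6.

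The median signal was 23.9 to 32.9 on tissue arrays and 13.2 to 19.7 on arrays of sorted cells, and their number limits the precision. No batch label was used. Groups came from the sample labels. Differences were fitted with limma 3.58.1 in R 4.3.3 after adding 16 to each signal and taking log2, in 1 model for the 25 tissue arrays and a separate model for the 6 sorted pools. A probe set entered the test if the higher group median reached 30. The p-values were adjusted over all such probe sets (Benjamini-Hochberg) and features called at an adjusted p under 0.05. A log2 difference computed with this offset is smaller than the ratio of signals for dim genes. The procedure was tested on simulated data.

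The members and all lists were chosen with earlier results of these data known. All 9 members are named, each by the brightest of its probe sets (mean log2 signal), with other probe sets where their sign differed. The 5 genes most like Igf2 over tumors, and up to 4 called genes with the largest difference from each other gene list, are named too, as well as 5 or fewer that moved against their list. The replicate number was checked as a pairing. In sorted cells the deviations of same-numbered pools correlated at 0.270, 0.306 and 0.372 over 10259 probe sets, each pool best with its own number, so the numbers were taken as pairs, while in tissue they ranged from -0.22 to 0.15 and were not. The fits were repeated without the offset, with signals floored at 30, without the filter, after quantile normalization, with the mean over probe sets, a replicate block or only the groups compared, without each sample in turn, and by the methods' t-test. The study gives this test (Student's, with unequal variance) in its general statistics and the fold limit for the arrays, and their combination was chosen here.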

Additional observations from a re-analysis of the deposited data

Results flagged for a closer look

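In 27 combinations of a gene and a tissue group of 4 or 5 samples (the tumors, more than 10, were not examined), 4 single values, of 3 samples, stood apart from the rest of their group by more than Dixon's 95% limit. Chance gives about 1 in 20 for independent, normally distributed values, and the limit was applied here to linear signals. Mest and Peg3 shared their order over the small hyperplasias, so their flags there are not independent. Small hyperplasia 3 had an Igf2 signal of 1157, with the other small hyperplasias at 78.9 to 381.7. Large hyperplasia 1 had a Mest signal of 513, with the others at 36.7 to 121.9. Small hyperplasia 2 had a Mest signal of 640, with the others at 53.3 to 101.6, and a Peg3 signal of 1484, with the others at 296.4 to 421.5.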

How the results depend on the processing

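Of 198 counts of member genes called, 189 stayed within 1.5 times the first value under the alternatives, and of 810 log2 differences 788 moved by less than the spread between samples and 0 reversed a called difference. The counts of genes called higher stayed at 2 in tumors (Igf2 and H19) against either group under every alternative run. In tumors against control tissue the adjusted methods' t-test left Peg3 uncalled (-4.03 as the log2 ratio of mean signals). In large hyperplasias the methods' t-test with a fold over 2 called 1 gene lower (Plagl1) before and after adjustment. In small hyperplasias it called 0 genes higher in both cases, and the mean over all probe sets called 1 (H19). There 1 gene was called lower with a replicate block (Grb10, -0.54) and 1 with only the groups compared in the fit (Grb10). With 1 sample left out, the number of genes called lower ranged from 0 to 2 in small hyperplasias, from 2 to 4 in large hyperplasias, from 5 to 6 in tumors against control tissue and from 3 to 4 in tumors against large hyperplasias. In large hyperplasias Peg3 was called lower with only the groups compared in the fit (-1.07) and without large hyperplasia 5 (-1.20), and Mest without large hyperplasia 1 (-2.05). Without control sample 2, Mest and Peg3 were called lower in small hyperplasias, and without small hyperplasia 2, Peg3 was (-1.21). With both samples left out together, chosen after seeing the data, the difference was -2.39 for Mest and -1.75 for Peg3. Grb10 was called lower in tumors against large hyperplasias without tumor 4, 5 or 10 or without large hyperplasia 2 or 3. The replicate block, which holds as a pairing in sorted cells alone, changed no other call of a member, with 0 members called in sorted cells. The mean over all probe sets brought the tumor difference of Igf2 to 3.49 and of Peg3 to -1.66, since dim probe sets entered it. By Spearman rho the 5 genes most like Igf2 had values of 0.62 to 0.82. Dlk1, H19 in control tissue and Cdkn1c in tumors lay near or below a signal of 30, where the arrays limit any statement on size.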

Other observations

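Several other imprinted genes changed in the same direction in all 3 kinds of lesion against control tissue, comparisons that share the control samples. Blcap, Gnas and Cd81 fell in each. Gnas, which encodes the stimulatory G protein alpha subunit, averaged 1733 ± 169 in tumors, 2973 ± 145 in large hyperplasias and 3578 ± 436 in small hyperplasias, against 4909 ± 690 in control tissue (limma, adjusted p = 1.3e-13, 3.3e-06 and 0.0014). Gatm, an enzyme of creatine synthesis, rose in each, to 102.1 ± 37.7 in tumors, 79.2 ± 7.5 in large hyperplasias and 76.4 ± 12.1 in small hyperplasias, against 44.9 ± 11.3 in control tissue (limma, adjusted p = 0.00014, 0.015 and 0.033). Against control tissue, 35.9%, 20.1% and 14.4% of all probe sets tested were called lower in tumors, large and small hyperplasias. The shares called higher were 33.2%, 25.6% and 16.8%. Of the endothelial markers, 10 of 10 fell in tumors, 9 in large hyperplasias and 7 in small hyperplasias against control tissue (limma). These genes were named after their values were seen.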
